A study of Mus musculus with 6 samples.

Results

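The 62 genes described here are the interleukins and interleukin receptors of mouse bone marrow-derived macrophages, of 16138 genes in the authors' deposited table. They were taken by name, as every gene symbol that begins with Il and a digit, and fell into 20 ligands, 3 antagonists or soluble binding proteins, 37 receptor chains and 2 genes of an enzyme induced by interleukin 4. Macrophages were grown from marrow for 7 days in 50 ng/ml macrophage colony-stimulating factor (M-CSF) with 20% serum. The 3 control samples had the genotype Morrbidfl/fl, in which the gene of the long non-coding RNA Morrbid is flanked by loxP sites. The 3 knockout samples, called cKO, had the genotype Morrbidfl/fl/Lyz2-Cre, so all 6 carried the flanked allele and the cKO samples alone carried Cre recombinase. Cre is driven there from the Lyz2 locus, which is active in macrophages and other myeloid cells, so that an effect of Cre and one of losing Morrbid cannot be told apart. No stimulus besides M-CSF is named in the labels.

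Interleukins are secreted signals between immune cells. Most act through receptors made of a ligand-binding chain and a chain shared by several receptors, such as IL1RAP, the common gamma chain, gp130 or IL17RA. Receptors of the interleukin 1 family and of interleukin 17 signal through adaptors and kinases to NF-kB, and most others through JAK kinases and STAT factors. Macrophages are a main source of interleukin 1 beta, and they also make its antagonist, encoded by Il1rn, which occupies the receptor without signalling. They respond to interleukin 4, interleukin 10 and interleukin 6.

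Each gene had 1 log2 fold change of cKO over control, 1 p-value and 1 q-value in the authors' deposited table, and values per library were not analysed here, so no value per sample, level or overlap between samples can be given. No label says whether the samples came from different animals, and the p-values then cover no more than the spread among 6 samples, which may be technical. In such bulk samples, fewer cells of a type and less RNA per cell cannot be told apart. Lyz2, the locus from which Cre is driven, stood at -0.85 (q = 4.6e-06) per the authors' deposited table. Bcl2l11, the neighbour of Morrbid, was at -0.24 (q = 0.292) and did not pass per the authors' deposited table. No value of Morrbid itself is given here, so its loss was not checked. The precision of each ratio was taken as the implied standard error, computed from the log2 ratio and its p-value, and the 95% intervals below were made from it. All 8 listed macrophage markers had an implied standard error of at most 0.190 log2 units. Of these, 2 passed, Lyz2 and Adgre1 (25%, against 1.72% of all genes). Adgre1 rose by 0.44 (q = 0.0104) per the authors' deposited table. Since Cre is driven from the Lyz2 locus, the Lyz2 ratio cannot be read as one of macrophage content. Of the 4 listed eosinophil markers, Ccr3 alone passed (25%, against 1.72% of all genes), at 1.14 (q = 2.77e-05) per the authors' deposited table. The other 3 had ratios below 0. None passed among the measured markers of neutrophils (7), dendritic cells (6), B cells (4) or mast cells and basophils (4). All 7 neutrophil markers had ratios below 0. Of the 12 listed fibroblast and stromal markers, all had ratios below 0, and their median was -1.71 log2 units per the authors' deposited table. The q threshold of 0.05 was passed by 2 of the 12 (16.7%, against 1.72% of all genes). Unadjusted p-values under 0.05 were found for 11 of them (91.7%, against 8.84% of all genes).

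The members that passed the test were Il1rn, which rose, and Il16, which fell, and the DNA at their starts is shown for them alone. RefSeq (build GRCm38.p6, which is not the authors' mm9) gave windows of 250 bases before to 50 bases after a start for 49 of the 62 members, 61 windows in all. Capitals mark matches on either strand to GGGNNNNNCC, the general shape of an NF-kB site, or to TGANTCA, the shape of an AP-1 site. The windows of Il1rn lie on the plus strand at chr2:24336610-24336909 and chr2:24345121-24345420, and those of Il16 on the minus strand at chr7:83735490-83735789 and chr7:83655446-83655745.
Il1rn, upstream start: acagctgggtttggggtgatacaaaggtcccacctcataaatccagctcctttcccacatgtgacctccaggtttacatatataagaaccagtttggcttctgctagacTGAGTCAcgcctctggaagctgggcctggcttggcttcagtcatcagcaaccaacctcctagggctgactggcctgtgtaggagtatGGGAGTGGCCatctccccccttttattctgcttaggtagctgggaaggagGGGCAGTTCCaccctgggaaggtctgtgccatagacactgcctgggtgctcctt
Il1rn, downstream start: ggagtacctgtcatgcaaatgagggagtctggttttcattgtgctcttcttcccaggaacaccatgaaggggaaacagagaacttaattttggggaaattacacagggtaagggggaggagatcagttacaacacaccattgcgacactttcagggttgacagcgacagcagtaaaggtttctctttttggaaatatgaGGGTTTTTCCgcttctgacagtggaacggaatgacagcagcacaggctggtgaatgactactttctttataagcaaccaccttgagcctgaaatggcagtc
Il16, upstream start: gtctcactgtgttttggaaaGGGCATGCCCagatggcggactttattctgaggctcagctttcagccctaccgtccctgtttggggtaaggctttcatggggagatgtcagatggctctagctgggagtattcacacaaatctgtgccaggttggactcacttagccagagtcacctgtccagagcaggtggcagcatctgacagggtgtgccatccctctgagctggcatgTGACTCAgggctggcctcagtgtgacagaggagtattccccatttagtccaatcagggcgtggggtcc
Il16, downstream start: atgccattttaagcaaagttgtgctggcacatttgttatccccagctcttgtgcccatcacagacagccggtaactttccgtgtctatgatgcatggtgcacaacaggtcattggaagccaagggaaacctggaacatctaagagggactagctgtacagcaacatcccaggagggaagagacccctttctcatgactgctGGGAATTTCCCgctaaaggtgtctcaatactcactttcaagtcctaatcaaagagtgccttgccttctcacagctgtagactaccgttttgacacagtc
The upstream Il1rn window held 2 matches to GGGNNNNNCC and 1 to TGANTCA, and the downstream window held 1 match to GGGNNNNNCC. Another Il1rn window, which overlaps the downstream one, held the same match, and a further Il16 window held none of the motifs searched. The upstream Il16 window held 1 match of each kind, and the downstream one held 2 matches to GGGNNNNNCC that overlap on opposite strands. Matches to GGGNNNNNCC are common, at 55.7% of the member windows, 63.9% of the 16044 windows of genes in the table and 50.8% of all 32851 windows. TGANTCA was found in 18% of the member windows, 5.81% of those of genes in the table and 7.81% of all. GAGGAA, the core of a PU.1 site, was in 34.4% of member windows, 27.2% of those of genes in the table and 28.3% of all. TTCNNNGAA, the shape of a STAT site, was in 13.1%, 7.02% and 8.30% of them, and neither was in the windows of Il1rn or Il16. All these shares count windows, of which a gene can have more than 1, and their differences were not tested. The ratios are per gene and do not say which start was used.

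Of the 62 members, 2 passed a q of 0.05 per the authors' deposited table, which is 3.23%, against 1.72% of all genes. One member rose and one fell, 1.61% each, against 0.849% of all genes that rose and 0.874% that fell. With so few calls these shares do not set the members apart from the other genes. At an unadjusted p under 0.05 there were 8 members (12.9%), 4 with ratios above 0 and 4 below, against 8.84% of all genes per the authors' deposited table. Of the 62 ratios, 31 were above 0 and 31 below, and the median log2 fold change was 0.00, beside -0.01 over all genes per the authors' deposited table.

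How much could be seen depended on precision, and much of the family was measured poorly in these cells. The implied standard error exceeded 1 log2 unit for 19 of 62 members (30.6%), against 23.1% of all genes. It was at most 1 for 43 members and at most 0.5 for 30 of these. Of those 30, 20 had ratios above 0 (66.7%) and 10 below, with a median of 0.09 per the authors' deposited table. Over all 10964 genes of that precision, 51.2% of ratios were above 0 and the median was 0.00 per the authors' deposited table, and no test of this difference was made. Where the implied standard error was at most 1, 2.24% of all genes and 4.65% of the 43 members passed the q threshold per the authors' deposited table. At an unadjusted p under 0.05 the shares were 11.2% of all such genes and 18.6% of the 43 members. Ligands were the least precise class, with 10 of 20 above 1, against 8 of 37 receptor chains.

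For 13 members (21.0%) the log2 fold change and p-value were exactly those of other genes, as for 12.5% of all genes, and such values say nothing particular to the gene. Il6 (interleukin 6, an inflammatory ligand), Il23a (a subunit of interleukin 23) and Il22ra2 (a soluble binder of interleukin 22) all had -0.98 with p = 0.810, as did 407 genes in all per the authors' deposited table. Il5, Il12a, Il19 and Il13ra2 all had 0.94 with p = 0.818 per the authors' deposited table, values found for 391 genes. Il21 and Il23r shared -0.02 with p = 0.996 per the authors' deposited table, among 38 genes. Il17d, Il11ra2, Il20ra and Il22ra1 made up the rest, each with values shared by 2 to 18 genes. The interval around the Il6 ratio ran from -8.98 to 7.01, so a change of Il6 in either direction could not be detected.

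**Figure D1:**
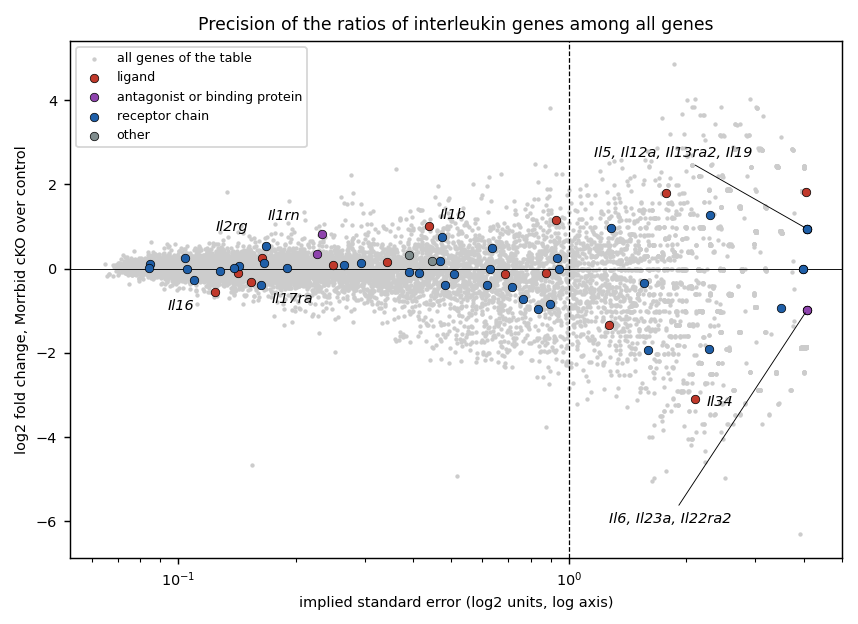
Implied standard error (horizontal, log axis) against the log2 fold change of cKO over control (vertical) for the 16138 genes in grey and the 62 interleukin genes in colour by class. The dashed line marks a standard error of 1, to the right of which lie 19 members, among them the 3 at -0.98 and the 4 at 0.94 whose values are shared with 407 and 391 genes in all.

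Il16 was the ligand that fell. Its product, first known as a lymphocyte attractant, is cut from a larger precursor with PDZ domains and binds CD4. Il16 (Gene ID 16170) stood at -0.56 with p = 5.15e-06 and q = 0.00105 per the authors' deposited table, rank 78 of all genes by p. The implied standard error was 0.124, and the cKO level was 0.676 times the control level, with a 95% interval of 0.572 to 0.800. It was the sole member past the stricter q of 0.01. Cd4, which encodes the receptor that interleukin 16 binds and was named after its value was seen, stood at 1.54 with q = 4.03e-06 per the authors' deposited table, 2.92 times the control level. Of the 6 measured markers of T and NK cells, Cd4 alone passed, and Cd8a stood at 0.02 (q = 1.00) per the authors' deposited table. The other 4 had implied standard errors above 1, with Cd3d at -0.03 and Nkg7 at -0.93 per the authors' deposited table. The ratio of Cd3g was one of those shared by 407 genes. Whether other cells took part in the Cd4 or Il16 values was not tested.

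The agonists of the interleukin 1 family pointed in different directions and none passed. Il1b, the main secreted interleukin 1 of macrophages, had the largest ratio among the 7 ligands whose implied standard error was at most 0.5. It stood at 1.01 with p = 0.0214 and q = 0.368 per the authors' deposited table, 2.02 times the control level with an interval of 1.11 to 3.66. Il1a, the membrane-associated alarm form, was at -0.11 (q = 1.00) per the authors' deposited table, with a wide interval of -1.83 to 1.60. Il18, which acts with interleukin 12 to elicit interferon gamma, stood at -0.32 with p = 0.0381 and q = 0.497 per the authors' deposited table, 0.802 times control. Il1f9, whose other symbol Il36g stands for interleukin 36 gamma, was at 0.09 (q = 0.993) per the authors' deposited table. The 2 most precise of these 4 ligands were Il18 and Il1f9, with implied standard errors of 0.154 and 0.249.

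Of the 3 antagonists and binding proteins, Il1rn alone passed. Il1rn (Gene ID 16181) rose by 0.82 with p = 0.000407 and q = 0.0287 per the authors' deposited table, rank 229 by p. That is 1.77 times the control level, with a 95% interval of 1.29 to 2.43. The interval of Il1b, 0.15 to 1.87 on the log2 scale, contains the whole interval of Il1rn, 0.37 to 1.28, and whether the ratio of antagonist to agonist differed between genotypes cannot be tested from 1 value per gene. Il18bp, which encodes a secreted trap for interleukin 18, was at 0.35 with p = 0.124 and q = 0.805 per the authors' deposited table, with an interval of -0.10 to 0.79.

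Among the other ligands, Il10 and Il15 were measured best. Il10, the macrophage cytokine that restrains inflammatory genes, stood at 0.26 with p = 0.111 and q = 0.775 per the authors' deposited table, an interval of 0.959 to 1.5 times control. Il15, which sustains NK cells and memory T cells, was at -0.10 (q = 0.993) per the authors' deposited table, between 0.771 and 1.13 times control. Il27, the p28 subunit of interleukin 27, was at 0.15 (q = 0.993) per the authors' deposited table. Ebi3, its partner subunit, was at 0.28 with p = 0.00818 and q = 0.218 per the authors' deposited table. Neither subunit passed. Il12b, the p40 subunit of interleukins 12 and 23, stood at 1.16 (q = 0.933) per the authors' deposited table with an implied standard error of 0.930, and its partner subunits Il12a and Il23a had shared values only. Il7, Il11, Il17c and Il34 had implied standard errors of 0.687 to 2.11 and q of 0.845 to 0.994 per the authors' deposited table. Il34, a second ligand of the M-CSF receptor, had the lowest ratio of the family, -3.09 per the authors' deposited table, with an interval of -7.23 to 1.05. Il11 was at -1.34 with an interval of -3.84 to 1.16 per the authors' deposited table. Stromal cells are a known source of both, beside the stromal median of -1.71, and the part of such cells in these ratios was not tested.

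Of 37 receptor chains, 0 passed the q threshold, a share of 1.72% over all genes, so that none among 37 does not set the chains apart. At an unadjusted p under 0.05 there were 4 (10.8%), against 8.84% of all genes, and the median log2 fold change was -0.01, the same as over all genes per the authors' deposited table. Of the 19 chains whose implied standard error was at most 0.5, 12 had ratios above 0 and 7 below, and the median was 0.01 per the authors' deposited table. Their largest ratio was that of Il27ra, the specific chain of the interleukin 27 receptor, at 0.75 (p = 0.115, q = 0.784) per the authors' deposited table.

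Among receptor chains, the common gamma chain came nearest to the threshold. Il2rg, its gene, serves the receptors for interleukins 2, 4, 7, 9, 15 and 21. It stood at 0.54 with p = 0.00133 and q = 0.0657 per the authors' deposited table, 1.45 times control with an interval of 1.16 to 1.83. The chains that pair with it had ratios on both sides of 0, and none passed. Il21r was on the other side of 0, at -0.27 with p = 0.0139 and q = 0.292 per the authors' deposited table. Il4ra was at -0.01 with an interval of -0.22 to 0.19, and Il15ra at 0.13 and Il7r at -0.08 had intervals spanning 0 per the authors' deposited table. Il2ra was at 0.17, Il2rb at -0.72 and Il9r at 0.97 per the authors' deposited table, with implied standard errors of 0.467 to 1.28. Il17ra, the chain common to receptors of the interleukin 17 family, stood at -0.39 with p = 0.0154 and q = 0.309 per the authors' deposited table, 0.761 times control. Its partners Il17rb, Il17rc and Il17rd had implied standard errors of 0.893 to 2.30, and no direction could be read for them.

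No chain of the receptors for interleukins 4, 10 and 6 passed. Il10ra and Il10rb, both chains of the interleukin 10 receptor, had the smallest implied standard errors of the family, 0.0845 and 0.0841. Il10ra was at 0.11 (q = 0.910) per the authors' deposited table, and its interval was 0.963 to 1.21 times control. Il10rb was at 0.01 (q = 1.00) per the authors' deposited table, between 0.898 and 1.13 times control. Il4ra was between 0.861 and 1.14 times control, and Il13ra1, which pairs with it in the receptor for interleukin 13, was at 0.01 per the authors' deposited table, between 0.776 and 1.3 times control. Il6ra was at 0.01 and Il6st, which encodes gp130, at 0.14 (both q near 1, at 1.00 and 0.993) per the authors' deposited table. Their intervals were 0.833 to 1.22 and 0.882 to 1.38 times control. The intervals of these 6 chains reached no further from 0 than 0.47 log2 units, for Il6st, whereas that of the ligand Il6 spanned several log2 units on both sides.

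No receptor of the interleukin 1 family passed, and Il1rap was the most precise of the 7 measured. Il1rap, the accessory chain shared by the receptors for interleukins 1, 33 and 36, was at 0.05 (q = 0.993) per the authors' deposited table, between 0.855 and 1.26 times control. Il1r1, the signalling receptor of interleukin 1, was at -0.44 and Il1r2, a decoy that binds it without signalling, at -0.96 per the authors' deposited table, with implied standard errors of 0.715 and 0.833. Il18r1 at -1.94 and Il18rap at -0.39, the chains of the interleukin 18 receptor, likewise did not pass per the authors' deposited table. Il1rl1, the interleukin 33 receptor ST2, was at 0.48 and Il1rl2, the interleukin 36 receptor, at -0.40 per the authors' deposited table. The intervals of all 7 included 0.

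Il3ra, the specific chain of the interleukin 3 receptor, stood at 0.26 with p = 0.0138 and q = 0.292 per the authors' deposited table, 1.19 times control with an interval of 1.04 to 1.38. Csf2ra, the specific chain of the related receptor for GM-CSF, rose by 0.34 (q = 0.00841) per the authors' deposited table. The beta chains of these receptors stood on the other side of 0. Csf2rb was at -0.20 (q = 0.975) and Csf2rb2 at -0.29 (q = 0.727) per the authors' deposited table. Reads of these near-identical paralogs may have been split between them. Il5ra, the third chain of this set, was at -0.02 (q = 1.00) per the authors' deposited table with an implied standard error of 0.630.

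Of the remaining precise chains, Il11ra1 was at -0.05, Il12rb1 at -0.10 and Il12rb2 at 0.09, all with q = 0.993 per the authors' deposited table. Il11ra1 has the near-identical copy Il11ra2, and their separate values are uncertain. Il20rb, a chain of receptors for the interleukin 10 family, and Il31ra, the specific chain of the interleukin 31 receptor, were at -0.14 and -0.01 per the authors' deposited table with implied standard errors of 0.508 and 0.944. Il4i1, an L-amino acid oxidase induced by interleukin 4, was at 0.19 and Il4i1b at 0.31 per the authors' deposited table, with intervals that include 0. Il4i1b overlaps Il4i1 and its neighbour Nup62 in the RefSeq annotation, so reads of these genes may have been shared.

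**Figure D2:**
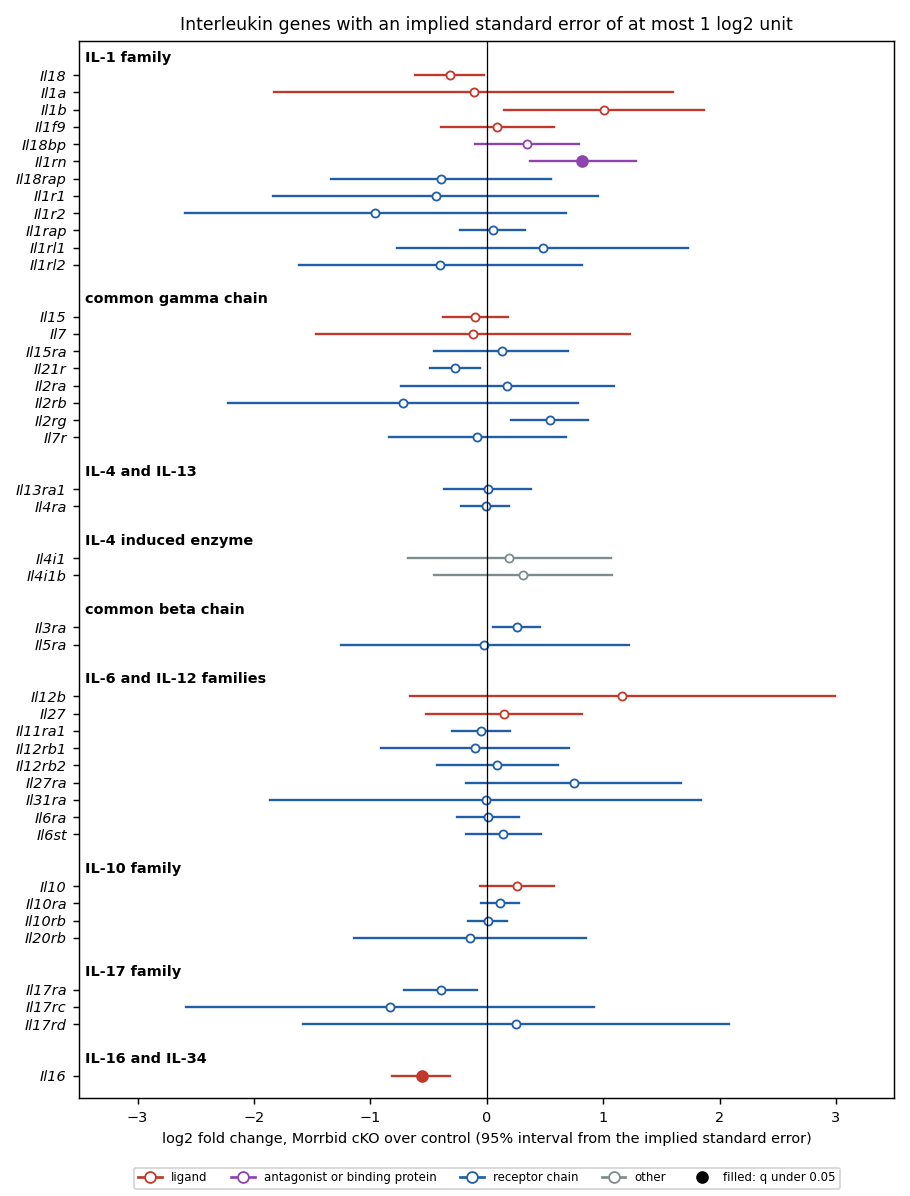
Log2 fold changes of cKO over control (horizontal) for the 43 interleukin genes whose implied standard error was at most 1, grouped by receptor system, with lines for the 95% interval and colour for the class. Il1rn at 0.82 and Il16 at -0.56 are the filled points past the q threshold, and the receptor chains Il10ra, Il10rb, Il4ra, Il13ra1 and Il6ra lie within 0.11 of 0.

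The interleukin 1 genes are of interest for their place, since Il1a and Il1b lie on chromosome 2 near Bcl2l11, next to which Morrbid lies. Between Bcl2l11 and Il1b, 12 further protein-coding genes of the table lie in the RefSeq order, Il1a among them. None of the 14 passed, their median log2 fold change was 0.00, and Bcl2l11 and Il1b had an unadjusted p under 0.05 (0.0140 and 0.0214) per the authors' deposited table. The 11 genes between Bcl2l11 and Il1a ran from -0.19 for Chchd5 to 0.44 for Vinac1 per the authors' deposited table, and the intervals of all 11 included 0. Il1rn lies elsewhere on chromosome 2, next to Il1f9 among the genes of the table. On chromosome 1, the 6 genes of the interleukin 1 receptor cluster, from Il1r2 to Il18rap, follow each other without another protein-coding gene of the table. Of these 6, 5 had ratios below 0 and Il1rl1 was above it, with none past the threshold and none with an unadjusted p under 0.05 per the authors' deposited table.

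**Figure D3:**
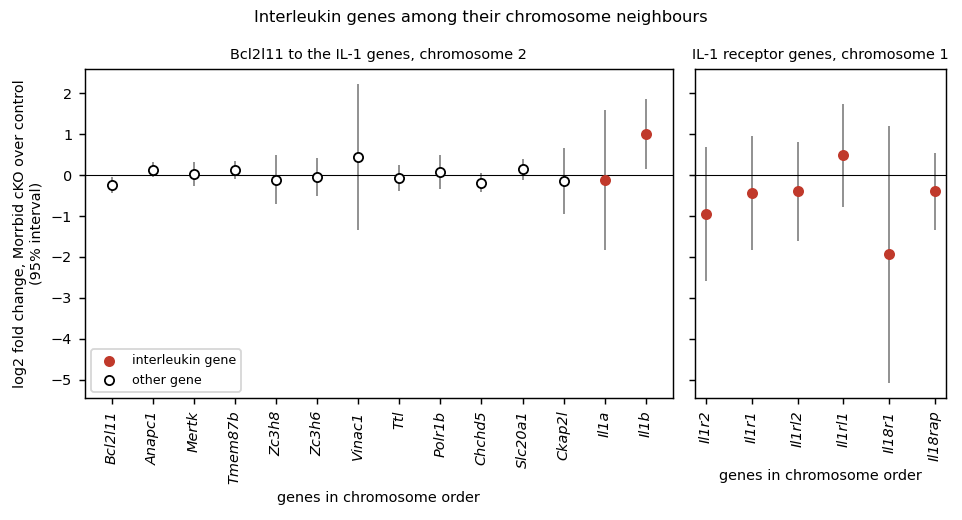
Log2 fold changes with 95% intervals (vertical) of protein-coding genes in chromosome order (horizontal, not to scale), for the 14 genes from Bcl2l11 to Il1b on chromosome 2 and the 6 genes of the receptor cluster on chromosome 1. Interleukin genes are in red; Il1b at 1.01 is the highest of the 14, and the intervals of all 6 cluster genes span 0.

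Other genes of interleukin signalling were gathered in 8 lists, with 148 of 150 genes measured. Some genes, Socs3 among them, are in more than 1 list and were counted once among the 148. Of the 148, 5 rose and 2 fell, 7 in all, and 36 had an unadjusted p under 0.05, 24 of them above 0, per the authors' deposited table. The shares were 4.73% past the q threshold, against 1.72% of all genes, and 24.3% at the unadjusted p, against 8.84%. The implied standard error was 1 or less for 140 of the 148, and over all genes of that precision the shares were 2.24% and 11.2%. None of 11 JAK and STAT genes passed or had an unadjusted p under 0.05, and apart from Stat4 at -0.50 (q = 0.814) they ran from -0.03 to 0.12 per the authors' deposited table. Of 18 listed SOCS, phosphatase and other genes that regulate this pathway, 0 passed. An unadjusted p under 0.05 was found for 3 (16.7%, against 8.84% of all genes). Socs6 at -0.38 (q = 0.147), Socs3 at 0.64 (q = 0.343) and Ptpn6, the phosphatase SHP-1, at 0.21 (q = 0.446) were these 3 per the authors' deposited table.

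Of 24 genes that carry the signal of interleukin 1 and Toll-like receptors, 1 rose (4.17%, against 0.849% of all genes) and 0 fell. It was Irak3, also called IRAK-M, a member of the IRAK family that restrains this signal in macrophages, at 0.70 with q = 0.00105, or 1.62 times control, per the authors' deposited table. Peli2, a ubiquitin ligase that acts on IRAK kinases, was at -0.63 (q = 0.0897) and Irak1 at -0.16 (q = 0.504) per the authors' deposited table. Sigirr, an inhibitory receptor of the interleukin 1 family, was at -0.70 (q = 0.581) per the authors' deposited table. None of the 14 inflammasome genes, whose products activate and release interleukins 1 beta and 18, passed. An unadjusted p under 0.05 was found for 2 (14.3%, against 8.84% of all genes). Casp1, the protease that cuts both precursors, was at 0.30 (p = 0.00769, q = 0.210) and Casp4 at 0.35 (p = 0.0151, q = 0.304), while Nlrp3 was at -0.11 (q = 0.993), per the authors' deposited table.

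Of 25 genes induced by interleukin 1 and NF-kB, 3 rose (12%, against 0.849% of all genes) and 0 fell. An unadjusted p under 0.05 was found for 12 (48%, against 8.84%), all with ratios above 0. Of the 25, 22 had ratios above 0 (88%, against 47.7%), and the median was 0.36, beside -0.01 over all genes per the authors' deposited table. The implied standard error was at most 1 for 23 of the 25. Over all genes of that precision, 1.1% rose, 11.2% had an unadjusted p under 0.05 and 49.9% had ratios above 0. Earlier results on these data had shown inflammatory genes higher, so this is no independent support. Sod2 (0.65, q = 0.00628), Tnfaip3 (0.40, q = 0.00815) and Nfkbiz (0.54, q = 0.0254) rose per the authors' deposited table. They encode mitochondrial superoxide dismutase, the NF-kB inhibitor A20, and a nuclear cofactor of NF-kB that is itself induced by interleukin 1. Nfkb2 was at 0.34 (q = 0.0570), Ccl5 at 1.75 (q = 0.131) and Acod1, the enzyme that makes itaconate, at 1.26 (q = 0.218) per the authors' deposited table. None of 16 genes induced by interleukins 10 and 6 passed. Of these, 7 had an unadjusted p under 0.05 (43.8%, against 8.84% of all genes), 6 of them above 0. The implied standard error was at most 1 for 15 of the 16, and 11.2% of all genes that precise had such a p. The smallest p-values of this list were those of Etv3, Bcl3 and Fpr1. They stood at 0.29 (q = 0.0583), 0.42 (q = 0.0925) and 0.55 (q = 0.255) per the authors' deposited table.

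Genes induced by interleukins 4 and 13 had a median of -0.20, with ratios from -1.52 to 1.71, per the authors' deposited table. Of 20 measured, 7 had ratios above 0 (35%, against 47.7% of all genes) and 13 below. This list too was chosen with earlier results of these data known, so its counts are no independent support. Past the q threshold, 2 fell (10%, against 0.874% of all genes) and 0 rose. At an unadjusted p under 0.05 there were 5 (25%, against 8.84%), all with ratios below 0. No gene of this list exceeded an implied standard error of 1, and 11.2% of all genes that precise had such a p. Ptgs1, cyclooxygenase 1, was lower at -1.52 (q = 0.00489) and Tgm2, transglutaminase 2, at -0.48 (q = 0.00405) per the authors' deposited table. The next smallest p was that of Mmp12, macrophage elastase, at -0.62 (q = 0.0559) per the authors' deposited table. Fn1 at -1.38 (q = 0.274), like Ptgs1, is also expressed by stromal cells, whose listed markers had a median of -1.71, and the part of such cells was not tested. Among 24 related cytokines and receptor chains not named as interleukins, Csf2ra alone rose (4.17%, against 0.849% of all genes) and 0 fell. An unadjusted p under 0.05 was found for 5 (20.8%, against 8.84%) per the authors' deposited table. Lif (-1.65, q = 0.462) and Osmr (-1.57, q = 0.536), a ligand and a receptor chain of the gp130 family, did not pass per the authors' deposited table. Both are also products of stromal cells and stood beside the same marker median of -1.71, whose part was not tested.

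**Figure D4:**
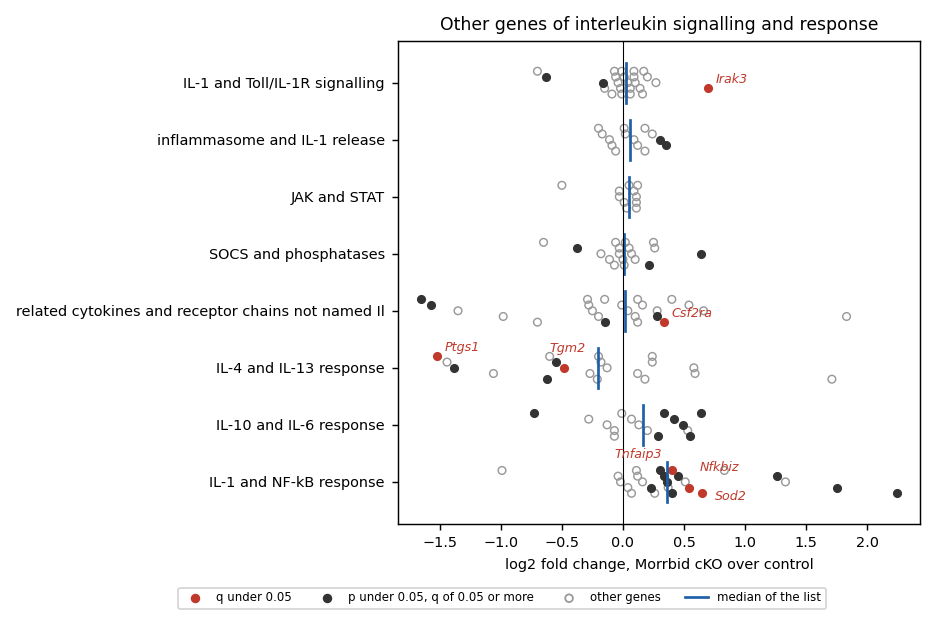
Log2 fold changes of cKO over control (horizontal) for 8 lists of genes of interleukin signalling and response (rows), with 1 point per gene and a blue line at the list median. Red points are the genes past the q threshold, and the list of interleukin 1 and NF-kB response has the highest median, 0.36.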

How the data were processed

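RNA from 3 control and 3 cKO macrophage samples was extracted with TRIzol and sequenced by probe-anchor synthesis, per the labels' protocols. The table the authors deposited holds for each gene a log2 ratio of Morrbid cKO to WT, with its p-value and q-value, and WT was read as the Morrbidfl/fl group. The submitters' processing notes name Bowtie2, RSEM 1.3.1, DESeq2 1.4.5 and build mm9, with no role for each. The low-count filter and scaling are not given in the sources used here. Library depth is unknown.

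Members, lists and rules were chosen with earlier results of these data known. Genes were called at a deposited q under 0.05. Recomputed Benjamini-Hochberg values differed from the deposited q by a relative 0.00591 at most. The standard error was the absolute log2 ratio over the normal quantile of the two-sided p, which assumes a Wald-type test, and intervals are 95% normal intervals. The planned model fits need values per library. The rule for naming took members with a q or p under 0.05 or an implied standard error up to 0.5, a set of core members, the called genes of each list, and up to 3 per list with the smallest p. Other members, Cd4, Csf2rb, Csf2rb2, Lif, Osmr, Fn1, Sigirr, Nlrp3, Nfkb2, Ccl5, Acod1, Chchd5, Vinac1 and marker genes were named after their values were seen. All 62 members and 16022 gene IDs matched RefSeq (GRCm38.p6), used for names, order and start windows. Steps were tested on simulated data. The software was Python 3.11.15 with NumPy 2.4.6, pandas 2.3.3, matplotlib 3.10.9 and SciPy 1.17.1. One further gene of the signalling lists is not reported here.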

Additional observations from a re-analysis of the deposited data

How the results depend on the processing

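No paired analysis was possible because there is a single ratio for each gene. Without values per library, fits that leave out a replicate, other scalings and other low-count filters were not run either. At a q under 0.01, 165 genes and 1 member (Il16) were called. Where a called gene also had to change by at least 1 log2 unit, 94 genes, 0 members and 1 signalling gene remained. Holm adjustment left 67 genes, 0 members and 0 signalling genes, against 278, 2 and 7 by the deposited q (8 members had an unadjusted p under 0.05). These settings are stricter by construction. More were called over genes whose implied standard error was at most 1, with 321 genes and 10 signalling genes. Over genes whose values no other gene shared, 306 genes and 9 signalling genes were called. Il1rn and Il16 were the calls among members by recomputed q-values and over mRNA genes alone. They were also the calls over genes whose implied standard error was at most 1, and over genes whose values no other gene shared. These last 2 settings left out only genes not called by the deposited q, so no call could be lost. Recomputed q-values repeat the deposited adjustment. Neither kind of setting thus adds support to the 2 calls. Under the standard error and shared value settings, the median log2 fold change was 0.01 and 0.01 for members, against 0.00 over all of them. It was 0.00 and -0.10 for ligands, against 0.04, and -0.01 and 0.00 for receptor chains, against -0.01. The ligand median thus changed sign, and no error was computed for these medians.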
